A study of Mus musculus with 3 samples.

Results

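The endothelial leukocyte adhesion molecules described here are Icam1, Icam2, Vcam1, Sele, Selp, Alcam, Mcam, Cd99l2 and Cd47. They were taken by gene symbol from the deposited table, which covers RNA bound to the ribosomes of endothelial cells in the heart, and all 9 are among its 17583 genes.

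The 3 libraries come from 3 EC-RiboTag mice and form a single group. All carry the genotype Cdh5-CreERT2;Rpl22tm1.1Psam, in which a tamoxifen-inducible Cre under the promoter of the endothelial cadherin gene Cdh5 switches the ribosomal protein RPL22 to a form with a hemagglutinin tag, and RNA bound to tagged ribosomes was immunoprecipitated from heart homogenates. The labels place the hearts on day 7 after coronary ligation, whereas an infarction is absent from the methods for these mice. Sample names contain the letters Rz, and the study uses RZ for the remote zone of the heart and also describes EC-RiboTag material collected by zone after infarction. The labels give heart as the tissue without naming a zone, so whether these libraries come from the remote zone is not settled, and they give neither age nor sex. No uninfarcted, untagged or input library was analysed here, so the levels below carry no comparison with another condition. In a pull-down from whole tissue, fewer cells that express a gene and less of its RNA per cell cannot be told apart.

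Leukocytes leave the blood by tethering to and rolling on endothelial selectins, arresting through integrins that bind endothelial immunoglobulin-type ligands, and then crossing the vessel wall between or through endothelial cells. Icam2, Mcam, Cd99l2 and Cd47 are generally regarded as constitutive on endothelium, and Alcam is commonly placed with them. Icam1, Vcam1, Sele and Selp are the classical endothelial genes induced by cytokines such as tumour necrosis factor and interleukin-1 through NF-kappaB, although resting endothelium also carries some ICAM-1 and stores P-selectin in Weibel-Palade bodies.

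All values are normalized counts, that is, read counts that the authors scaled with DESeq2 size factors and rounded. They sum to 7149102, 7158585 and 7268785 in mice 1, 2 and 3, and the pattern of empty whole numbers gives about 7321000, 6757000 and 7564000 reads. Of the endothelial markers, 12 of 12 were found in every mouse, with summed values of 28759, 27701 and 27593. RNA of other cells was present as well, including that of cardiomyocytes, whose 10 markers summed to 20105, 20765 and 23893. None of the 72-base windows of the members' canonical transcripts had an exact copy elsewhere in the genome, and none of their exonic bases overlapped another gene on the same strand.

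The sequences upstream of 3 of the cytokine-induced genes are shown because Icam1 differed both in per-length level and in spread between mice from Sele and Selp, which lie close together on chromosome 1. RefSeq promoters of the GRCm38.p6 table were matched exactly to GRCm39, and only bases before the start of the gene in the deposited table are printed, 5′ to 3′ on the plus strand, which is the strand of each gene. For Icam1, the region is chr9:20926986-20927235 and capitals mark GGAAATTCC, a sequence of the kappa-B type that ends at position -145 from the RefSeq start. For Sele, it is chr1:163875553-163875772 and capitals mark TATAAA, ending at position -44. For Selp, it is chr1:163942583-163942832, and neither motif was found on either strand. Apart from the longer consensus given below, only these exact letters were sought. Kappa-B sites of other spelling, in Sele as in the others, would therefore stay in lower case.
Icam1: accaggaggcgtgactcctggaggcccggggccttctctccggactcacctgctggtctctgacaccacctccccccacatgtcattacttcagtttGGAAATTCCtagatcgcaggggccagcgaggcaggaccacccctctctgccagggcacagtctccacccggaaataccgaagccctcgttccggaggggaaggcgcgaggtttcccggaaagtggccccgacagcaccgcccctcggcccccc
Sele: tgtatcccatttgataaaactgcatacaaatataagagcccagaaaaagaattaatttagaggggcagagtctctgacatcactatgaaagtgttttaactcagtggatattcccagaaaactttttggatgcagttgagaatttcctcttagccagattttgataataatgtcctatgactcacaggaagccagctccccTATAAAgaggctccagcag
Selp: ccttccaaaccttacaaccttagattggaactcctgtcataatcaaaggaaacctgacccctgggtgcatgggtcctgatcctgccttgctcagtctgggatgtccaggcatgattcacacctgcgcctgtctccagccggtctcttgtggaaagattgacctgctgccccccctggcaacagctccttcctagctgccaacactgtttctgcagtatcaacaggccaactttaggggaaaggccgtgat
Over the whole RefSeq window of 250 bases, Icam1 held 15 CpG dinucleotides, against 1 for Sele and 3 for Selp. Their GC contents were 65.2%, 40.4% and 53.6%, where the median of 32851 RefSeq promoter windows was 52.4%, with 6 CpG. TATAAA occurred on either strand in 12.4% of those windows and GGAAATTCC in 0.286%. The longer NF-kappaB consensus, present in 7.25% of windows, was in 0 of the 7 members' windows given there, which says only that its letters are not in these bases. Of the other members in the RefSeq table, Cd99l2 had 6 CpG, Alcam 22, Mcam 25 and Cd47 30. The Alcam and Cd47 windows lay wholly inside the gene as the deposited table delimits it, and 61 bases of the Mcam window lay before it. Icam2 and Vcam1 had no entry there.

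All 9 members were found, with at least 10 normalized counts in every mouse. The same held for 78.7% of all genes listed. Per kilobase of transcript they fell into 6 genes at 261.6 or more and 3 genes, Selp, Sele and Alcam, at 48.3 or less. Both groups hold constitutive and cytokine-induced genes, as Vcam1 and Icam1 belonged to the former and Alcam to the latter.

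Icam1 (ENSMUSG00000037405, chr9:20927281-20940113, plus strand) encodes ICAM-1, the ligand of the leukocyte integrins LFA-1 and Mac-1 in firm arrest. It was listed at 976, 1030 and 1049 normalized counts in mice 1, 2 and 3, or 1018 ± 37.9 (SD, n = 3). The 3 mice lay close together. Icam2 (ENSMUSG00000001029, chr11:106268482-106278901, minus strand) encodes a shorter LFA-1 ligand that endothelium carries without stimulation. It was listed at 872, 937 and 825 in mice 1, 2 and 3, or 878.0 ± 56.2 (SD, n = 3). No mouse stood apart for Icam2 either.

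Vcam1 (ENSMUSG00000027962, chr3:115903598-115923337, minus strand) encodes VCAM-1, the ligand of the integrin VLA-4 on lymphocytes and monocytes. Its normalized counts of 1303, 1309 and 1346 gave a mean of 1319 ± 23.3 (SD, n = 3). This was the least variable member, with a coefficient of variation (CV) of 1.77%. Vcam1 is also known from fibroblasts and mural cells. The fibroblast markers, 8 of 8 of them listed, summed to 2881, 3444 and 3767, and the 9 mural markers to 1755, 2218 and 2500. The part of these cells in the Vcam1 level was not tested.

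The selectins are the lectins on which leukocytes roll, and the genes of both lie in the same part of chromosome 1. Sele (ENSMUSG00000026582, chr1:163875773-163885246, plus strand), which encodes E-selectin, was listed at 32, 52 and 54 in mice 1, 2 and 3, or 46.0 ± 12.2 (SD, n = 3). Selp (ENSMUSG00000026580, chr1:163942833-163977595, plus strand), which encodes the stored P-selectin, was listed at 74, 210 and 214, or 166.0 ± 79.7 (SD, n = 3). For both selectins, mouse 1 lay below the other mice, which were nearly equal. For Selp, the 95% exact Poisson intervals of counting error were 58.5 to 92.9 in mouse 1, 182 to 241 in mouse 2 and 187 to 244 in mouse 3. The interval of mouse 1 thus lay apart from both others, while for Sele it was 22.2 to 45.3 against 38.4 to 68.6 and 40.7 to 69.9, which overlap. Without mouse 1 the Selp mean would be 212. Platelets also carry P-selectin, and the 6 platelet markers summed to 128, 106 and 108. Their part in the Selp level was not tested.

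Mcam (ENSMUSG00000032135, chr9:44045766-44054024, plus strand) encodes CD146, a junctional immunoglobulin-type protein of endothelium and pericytes. Its normalized counts were 1640, 1957 and 1827, or 1808 ± 159 (SD, n = 3). Alcam (ENSMUSG00000022636, chr16:52069359-52274437, minus strand) encodes CD166, a related protein that binds itself and CD6 of T cells. It was listed at 12, 33 and 44, or 29.7 ± 16.3 (SD, n = 3). Its counting intervals were 6.05 to 20.5, 22.3 to 46.6 and 32.4 to 59.0, so mouse 1 again lay apart from both other mice. Without mouse 1 the Alcam mean would be 38.5.

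Cd99l2 (ENSMUSG00000035776, chrX:70463666-70536455, minus strand) encodes a relative of CD99 that takes part in the passage of leukocytes through the vessel wall. Its normalized counts were 1007, 867 and 897, or 923.7 ± 73.7 (SD, n = 3). Here mouse 1 was the highest. Cd47 (ENSMUSG00000055447, chr16:49620896-49735373, plus strand) encodes the broadly expressed ligand of SIRP-alpha, which restrains phagocytosis and takes part in transmigration. It was listed at 2170, 2072 and 2047, or 2096 ± 65.0 (SD, n = 3). Mouse 1 was again the highest, by a margin of at most 1.06 times.

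**Figure D1:**
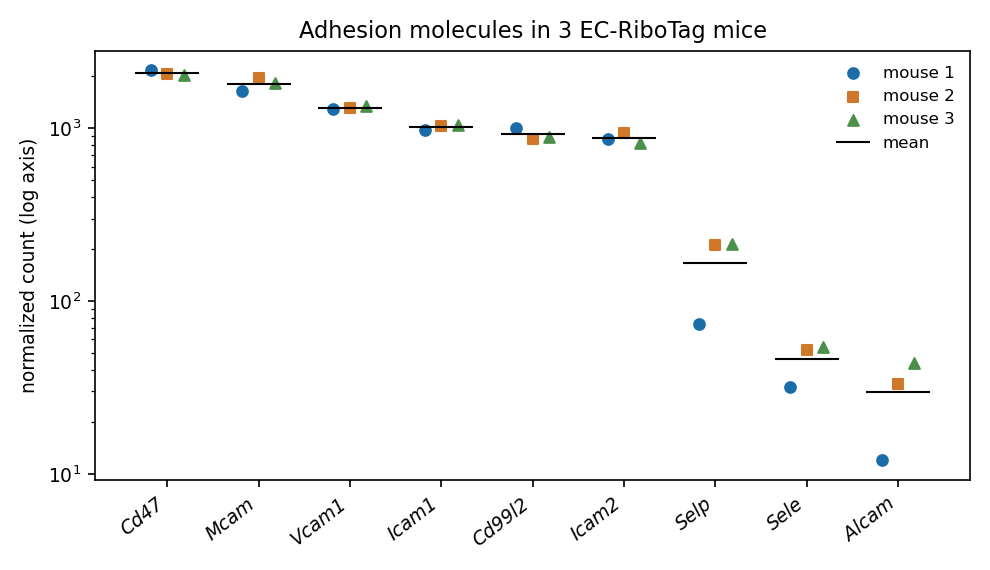
Normalized counts of the 9 adhesion molecules (log axis) in each EC-RiboTag mouse, with the mean as a bar. The 3 mice lie close together for the 6 genes from Cd47 to Icam2, and mouse 1 lies below the others for Selp, Sele and Alcam.

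To compare levels between genes, normalized counts were divided by the length of the canonical transcript in kilobases (kb), counting the bases inside the gene as the deposited table delimits it. On this per-length scale the order was Cd47 (1288 ± 40.0 per kb, SD, n = 3), Icam2 (684.9 ± 43.9), Mcam (586.6 ± 51.7), Icam1 (401.7 ± 14.9), Vcam1 (380.3 ± 6.71), Cd99l2 (261.6 ± 20.9), Selp (48.3 ± 23.2), Sele (15.6 ± 4.14) and Alcam (4.91 ± 2.69). In each of the 8 pairs of neighbours the means were farther apart than either SD, and the order held in 3 of 3 mice. Among the 17384 genes with a length, Cd47 ranked 17, Icam2 210, Mcam 412, Icam1 1448, Vcam1 1661 and Cd99l2 3369, while Selp, Sele and Alcam ranked 10416, 12803 and 14908. The 6 higher genes lay above 197.7 per kb, the median of 9353 genes whose mean normalized count was 200 or more, and the selectins and Alcam below it. The selectins and Alcam averaged under 200 and so were not among those genes. They also lay below 84.6 per kb, the median of all 17384 genes with a length. The order among the 6 higher genes depended on the transcript length assumed, whereas Selp, Sele and Alcam kept places 7, 8 and 9 under every length tried and without division by length.

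The places of Icam2 and Cd47 moved most. The canonical transcript of Cd47 has 1627 bases and its longest coding transcript 5561, and division by the latter gave 377 ± 11.7 per kb and place 5. A single-end library freed of duplicates keeps about 1 read per transcript position, and Cd47 on its canonical length was at 1.29 normalized counts per base. As this is above 1, the canonical length may be too short for Cd47, and its place 1 rests on that length. Icam2 took place 2 on the 1282 canonical bases inside the counted gene, and place 6 where the whole canonical transcript of the newer annotation, 6452 bases, was used. Mcam stayed within places 1 to 3.

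**Figure D2:**
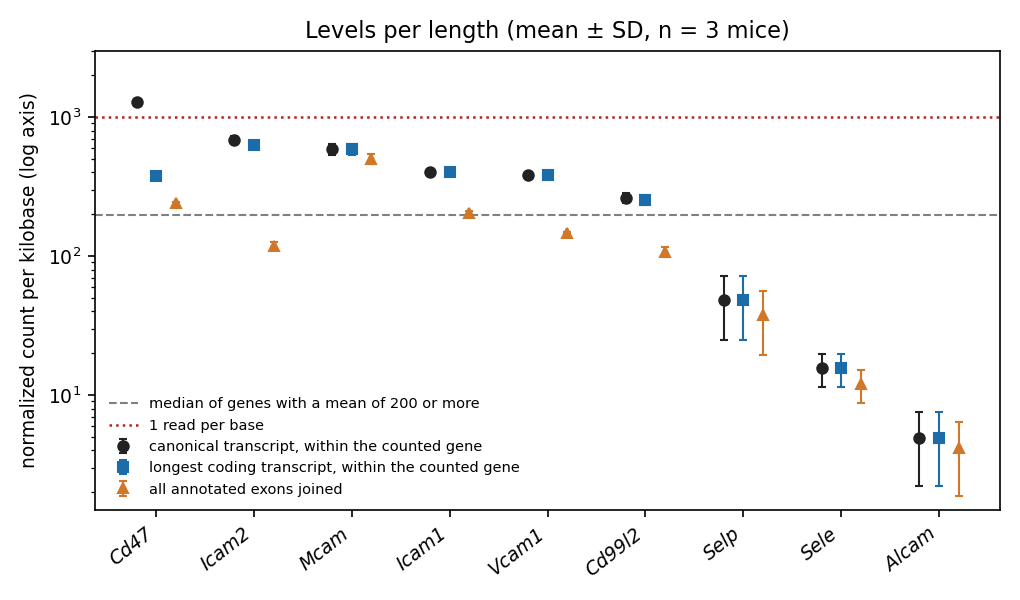
Levels per kilobase (log axis, mean ± SD, n = 3 mice) with the length taken from the canonical transcript, the longest coding transcript or all annotated exons joined. The dashed line is the median (canonical length) of genes averaging 200 or more normalized counts and the dotted line 1 read per base. On canonical lengths Selp, Sele and Alcam lie below the dashed line, and with all annotated exons joined Icam2, Vcam1 and Cd99l2 do so as well.

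Members of like structure or role were compared within each mouse as log2 ratios of the per-length levels, with a pseudocount of 0.5. The exact sign-flip permutation test over 3 mice, two-sided, cannot give a p below 0.25, and all 7 ratios had that value (also after Benjamini-Hochberg adjustment over the 7), with the same direction in 3 of 3 mice. Among the integrin ligands, Icam2 exceeded Icam1 by 0.77 ± 0.11 (SD, n = 3) on the log2 scale, or 1.70-fold, and Vcam1 by 0.85 ± 0.11, or 1.80-fold. Both directions turned with other lengths, to -0.79 and -0.31 for all annotated exons joined, for which Icam2 is given its long newer form. For the whole canonical transcript they turned to -1.25 and -1.48. That length is closest to the one planned, since counting only bases inside the gene was decided after the lengths were seen. For Icam1 over Vcam1 the log2 ratio was 0.08 ± 0.04 (SD, n = 3) or 1.06-fold. It ran from -0.23 with the whole canonical transcript to 0.48 with all annotated exons joined and 0.67 with exons joined inside the counted gene, so which gene was higher depended on the length.

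Between the selectins, Selp exceeded Sele 2.83-fold (SD of the log2 ratio 0.46, n = 3). The log2 ratio was 0.97 in mouse 1, 1.78 in mouse 2 and 1.75 in mouse 3, so the excess of Selp was smallest in the mouse in which both genes were lowest. The log2 ratio of Alcam to Mcam was -7.06 ± 0.86 (SD, n = 3), so that Alcam was 133-fold lower. It was -8.01, -6.84 and -6.33 in mice 1, 2 and 3, and no other of the 6 pairs compared lay so far apart. Cd47 exceeded Cd99l2 by 2.30 ± 0.07 (SD, n = 3), or 4.93-fold, a distance that shrank to 0.58 with the longest coding transcripts but kept its direction.

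The median per-length level of the 5 constitutive genes was 586.8 ± 51.7 per kb and that of the 4 cytokine-induced genes 132.6 ± 36.8 per kb (SD, n = 3). The constitutive median was the level of Mcam in each mouse. The cytokine-induced median lay midway between Vcam1 and Selp on the log scale, where no member was. The log2 ratio of these medians was 2.18 ± 0.33 (SD, n = 3), with 2.56, 2.06 and 1.93 in mice 1, 2 and 3. Without Sele and Selp it was 0.58, and with means in place of medians 1.17. It was 0.74 with all annotated exons joined and 0.46 with whole canonical transcripts.

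Of the 9 members, 6 had mean normalized counts of 200 or more, and 0 of these 6 had a CV over 20%, against 8.00% of the 9358 genes above that cut. Their CVs ran from 1.77% for Vcam1 to 8.81% for Mcam, with a median of 5.06%, where the median of all 9358 genes was 7.37%. The 6 members averaged 878.0 to 2096 normalized counts, and the 9358 genes were not matched to them by level. The 3 lower members varied more, with CVs of 26.4% for Sele, 48.0% for Selp and 54.8% for Alcam, but no genes of like level were set beside them.

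These 3 genes were the members that lay at least 1.5-fold lower in mouse 1 than in each of the other mice, a rule chosen after the values were seen. The same was true of 5.16% of 13279 genes (mean of 20 or more). Selp was 2.84-fold and 2.89-fold higher in mice 2 and 3 than in mouse 1, Alcam 2.75-fold and 3.67-fold, and Sele 1.62-fold and 1.69-fold. No member lay as far below in mouse 2 or mouse 3, where 1.75% and 0.482% of genes did. The members Icam1, Vcam1 and Mcam were also lowest in mouse 1, but by no more than 1.19-fold. In all, 6 of the 9 members were lowest in mouse 1, as were 33.8% of those 13279 genes.

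Other measures differed in mouse 1 as well. The 8 leukocyte markers listed summed to 582, 825 and 799 in mice 1, 2 and 3, with 5 of 8 lowest in mouse 1 and 1 more tied. With sums given beside Vcam1, the mural markers were lowest there in 6 of 9 cases and the fibroblast markers in 6 of 8. All 6 lymphatic markers were lowest in mouse 1, with sums of 3257, 3988 and 4570, while of the 4 venous markers 1 was, the venular gene Ackr1 at 24, 116 and 69. Over all 13279 genes averaging 20 or more, the share lowest in mouse 1 was 33.8%. Mouse 1 also differed in sex-linked genes, with Xist at 4, 618 and 869 and Ddx3y at 1080, 3 and 1. That is the pattern of a male in mouse 1 and of females in mice 2 and 3. Differences between mouse 1 and the other mice therefore cannot be told apart from differences of sex. The endothelial markers were lowest in mouse 1 in 2 of 12 cases and the cardiomyocyte markers in 4 of 10. Each marker list was found at some level in every mouse, though single markers were at 0 (the B-cell gene Cd79a in mouse 3, the platelet genes Gp5 in mice 1 and 3 and Gp9 in mouse 3). By the median of the per-length levels, fibroblast markers were at 107 per kb and cardiomyocyte markers at 565, beside 711 for endothelial markers. Removal of duplicates compresses high per-length levels, as about 1 read per base, or 1000 per kb, is kept. The 99th percentile of 9353 genes averaging 200 or more was 786 per kb. The cardiomyocyte and endothelial medians, and shares taken of the latter, therefore do not give relative amounts of RNA. The median per-length level of 17 leukocyte and mural markers, which covers neither fibroblasts nor cardiomyocytes, was 3.12%, 5.33% and 5.43% of the endothelial median. The part of these differences in the low Selp, Sele and Alcam of mouse 1 was not tested.

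**Figure D3:**
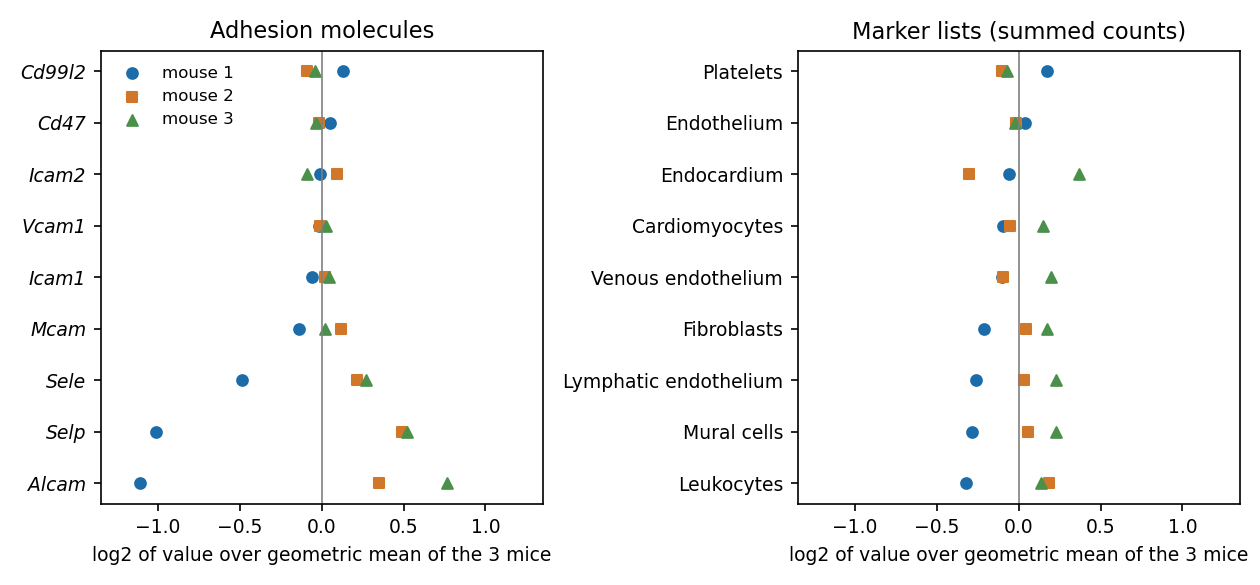
Deviation of each mouse from the geometric mean of the 3 mice, as log2 of the normalized count, for the 9 adhesion molecules on the left and the summed counts of the marker lists on the right. Mouse 1 lies to the left for Selp, Alcam and Sele and, by less, for the leukocyte, mural, lymphatic and fibroblast lists, and near 0 for the endothelial list.

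Around the 9 members, lists of genes of the same pathway were measured, of which per-length levels are given here. Other endothelial adhesion molecules were represented by 15 of 17 genes, 13 of them with at least 10 normalized counts in every mouse. Their median of 641 per kb lay above that of Icam1 and below that of Icam2. Cd34, a sialomucin that can carry selectin ligands, was the highest at 840 per kb. Of the 13, Pvr, a nectin-like ligand of leukocyte receptors, was the lowest at 237 per kb. Madcam1, the integrin ligand of gut venules, had normalized counts of 0, 4 and 8, and Cd99 and Icam5 were not listed. For Cd99l2 this means that its relative Cd99 has no value beside it.

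The counter-receptors on leukocytes were represented by 13 of 15 genes, with a median of 7.07 per kb. Of these, Itgb1, an integrin chain that endothelium itself uses, was the highest at 638 per kb. LFA-1, which binds ICAM-1 and ICAM-2, is formed by Itgal, the lowest of the 10 genes with at least 10 normalized counts in every mouse, at 19, 19 and 15, and Itgb2, at 30, 32 and 33. Selplg, which encodes the main ligand of P-selectin, was at 16, 21 and 22. Sirpa, the partner of Cd47, was at 410, 580 and 676. Per length, Itgal and Itgb2 averaged 3.38 and 10.7 per kb beside 401.7 for Icam1, Selplg 10.5 beside 48.3 for Selp, and Sirpa 128 beside 1288 for Cd47. Of the 13 genes, 10 were lowest in mouse 1 and 3 of the 8 averaging 20 or more lay low there by the 1.5-fold rule. The shares over all genes averaging 20 or more were 33.8% and 5.16%.

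The receptors and NF-kappaB factors through which Icam1, Vcam1 and the selectins are known to be induced were found in 24 of 24 cases, with a median of 211 per kb. Tnfrsf1a, the main receptor for tumour necrosis factor, was the highest at 668 per kb, and Il1rap, the accessory chain of the interleukin-1 receptor, the lowest at 31.6 per kb. Of its 23 genes averaging 200 or more, 0 had a CV over 20%, beside 8.00% of all genes above that cut. By the 1.5-fold rule 0 of the 24 lay low in mouse 1, beside 5.16% of all genes averaging 20 or more. With so few genes, counts of 0 differ little from those shares. Other genes that cytokines induce in endothelium had a lower median of 101 per kb over 13 of 15 genes listed, of which 10 reached 10 normalized counts in every mouse. In this list Cxcl10, an interferon-induced chemokine, was the highest at 309 per kb with normalized counts of 218, 502 and 299, and Ptgs2, an enzyme of prostaglandin synthesis, the lowest of those 10 at 14.9 per kb. Of the 13 genes, 7 were lowest in mouse 1, and 2 of the 10 averaging 20 or more lay low there by the 1.5-fold rule, beside the same 33.8% and 5.16% of all genes.

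Inside the cell, the tails of ICAM-1 and VCAM-1 are linked to actin through ezrin, radixin, moesin, filamins and alpha-actinins. All 12 genes of this list were found, with a median of 342 per kb, from Arhgef26, an exchange factor for RhoG, at 78.8 per kb to Cav1, the caveolar coat gene, at 900 per kb. The Weibel-Palade body genes, whose products are stored with P-selectin or act on these stores, were found in 8 of 8 cases with a median of 240 per kb. The highest was Plat, tissue plasminogen activator, at 387 per kb, and the lowest Rab3b, a secretory GTPase, at 7.92 per kb. Of these 8 genes, 3 were lowest in mouse 1, beside 33.8% of all genes averaging 20 or more. By the 1.5-fold rule 1 lay low there, beside 5.16% of all genes, namely Rab3b with normalized counts of 18, 29 and 32. Vwf, whose product forms these bodies, was at 1898, 1886 and 3098.

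**Figure D4:**
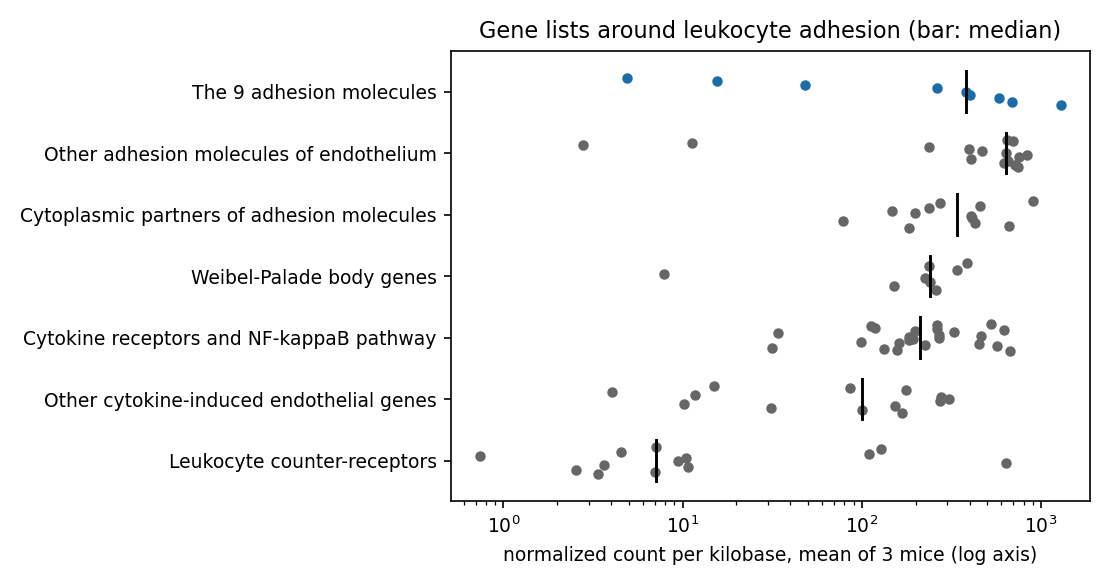
Mean normalized count per kilobase (log axis, mean of 3 mice) of each listed gene, with the list's median as a bar. The 9 adhesion molecules span 4.91 to 1288 per kb, and of the 7 lists plotted the leukocyte counter-receptors have the lowest median at 7.07 per kb.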

How the data were processed

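RNA-seq was analysed from 3 EC-RiboTag libraries, mapped to mice by sample title. Per the methods and the submitters' processing notes, the authors trimmed reads with Trimmomatic 0.39, aligned them with STAR 2.7.11a to mm39 (GRCm39), removed duplicate, multi-mapping, ribosomal and mitochondrial reads with Picard 3.1.1, counted reads on the correct strand with featureCounts 2.0.4 and normalized with DESeq2 1.36.0. The deposited values are a score, namely these counts divided by size factors and rounded, so no count test was run. Removal of duplicates compresses values that are high for the length of the transcript. The libraries are given as biological replicates.

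The members and gene lists were chosen with earlier results of these data known. All 9 members are named. From each list the highest and the lowest gene per length with at least 10 normalized counts in every mouse are named, and others (Madcam1, Itgb2, Selplg, Sirpa, Vwf, Ackr1, Gp5, Gp9, Cd79a, Xist and Ddx3y) were picked after their values were seen. Lengths come from a GENCODE annotation of GRCm39, in which 17475 of 17583 identifiers (99.39%) were found. It is newer than the one used for counting, so canonical exons were counted only inside the gene limits of the deposited table, a choice made after seeing the lengths. The read number per library was estimated from the spacing of values between 5 and 120. Counting intervals are exact Poisson intervals at 95% and cover counting error only. Exact copies were searched with BLAST 2.17.0. Ratios were tested by exact permutation of signs over mice (numpy 2.4.6, pandas 2.3.3, Python 3.11.15). The scripts were tested on simulated data. Alternatives were TMM scaling, scaling to equal totals, other lengths, filters and pseudocounts, and leaving out each mouse.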

Additional observations from a re-analysis of the deposited data

How the results depend on the processing

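Of the 9 members, 8 reached 20 normalized counts in every mouse and 7 reached 50, and 9 reached 10 under TMM scaling or scaling to equal totals. Transcript length mattered most. The number of members that kept their place in the order was 4 of 9 with all annotated exons joined or with the longest coding transcript, and 5 of 9 with the whole canonical transcript, with all exons joined inside the counted gene, or without division by length. The log2 ratio of Icam2 to Icam1 turned to -0.79 with all annotated exons, -0.22 without division and -1.25 with the whole canonical transcript, and that of Icam2 to Vcam1 to -0.31, -0.59 and -1.48. These values follow from the longer Icam2 of the newer annotation or from leaving out length. Icam1 over Vcam1 turned to -0.37 without division and -0.23 with the whole canonical transcript, and was 0.48 with all annotated exons and 0.67 with exons joined inside the counted gene. The leukocyte and mural marker level was 4.63% of the endothelial level and 6.51% with all annotated exons or 6.06% without division. Members with a CV over 20% numbered 1 at a mean of at least 100 and 3 without a filter, against 0, and members low in mouse 1 by the 1.5-fold rule numbered 1 at a mean of at least 50, against 3. The share of all genes was taken only at the main settings. Counts of members at the other cuts and scalings, also those for detection, thus have no share to be read against.

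Since each ratio had the same sign in all 3 mice, leaving out a mouse could not turn it. The log2 ratios then ranged from 0.73 to 0.83 for Icam2 over Icam1, 0.79 to 0.91 for Icam2 over Vcam1, 0.06 to 0.10 for Icam1 over Vcam1, 1.36 to 1.77 for Selp over Sele, -7.42 to -6.58 for Alcam over Mcam, 2.27 to 2.34 for Cd47 over Cd99l2 and 2.00 to 2.31 for constitutive over cytokine-induced genes. The marker level ranged from 4.22% to 5.38%. With 2 mice the smallest p of the exact permutation test is 0.5. The alternatives with longest coding and clipped exonic lengths, the stricter cuts and scalings for detection, and the rule for mouse 1, were chosen after seeing the data. The plan named the length of the canonical transcript, and clipping it to the counted gene, as in the main setting, came after the lengths were seen. The whole canonical transcript, on which Icam2 lay below Icam1 and Vcam1, is thus closest to the plan. No paired analysis was possible because all 3 libraries belong to 1 group.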
